A study of Mus musculus with 11 samples.

Results

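The guidance families are the Eph receptors and their ephrin ligands, the semaphorins and their plexin and neuropilin receptors, the Slits and their Robo receptors, and the netrins with neogenin and the Unc5 receptors. The families were chosen with earlier results of these data known. Within them members were taken by gene symbol alone, which gave 59 of the 13720 genes in the table, 31 ligands and 28 receptors. Of these, 57 passed the filter on low values and were tested together with 12996 genes in all. Sema6b and Unc5a stayed below it. Levels are in CPM (reads of a gene scaled for library size). Sema6b was at 0.395 to 1.07 CPM in KO and 0.509 to 1.09 CPM in WT. Unc5a was at 0.325 to 0.819 CPM in KO and 0.414 to 0.974 CPM in WT.

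RNA was taken from the hindlimb (HL) buds of mouse embryos at E10, and the HLs of 1 embryo made up a library. The comparison asked which transcripts change when the TALE homeodomain factors Meis1 and Meis2 are deleted from the limb-forming region. There were 6 embryos labelled as Meis1 and Meis2 knockout (M1KO;M2KO, here KO) and 5 labelled as WT. KO S_258, KO S_280 and KO S_284 were male embryos from litters 1, 3 and 4, with 30 to 33 somites, and WT S_252 and WT S_254 were female embryos from litter 1 with 30 to 32 somites. These 5 libraries were made with the NuGen Ovation kit. KO 2, KO 3 and KO 4, labelled HoxB6CreER;Meis1Ko;Meis2KO, and WT 1, WT 3 and WT 4 were made with the NEBNext kit, with 30 to 31 somites and no sex or litter in their labels. WT S_254 carried 1 mutant Meis1 allele and is kept with WT as labelled. In the study's crosses a conditional Meis2 allele, deleted by HoxB6CreER after an injection of 4-hydroxy-tamoxifen, was joined to a Meis1 allele that was itself conditional or else missing from the whole embryo. Which form of Meis1 each KO library carried is not given in the sources used here. That Cre acts in the lateral plate, so ectoderm, vessels and somite-derived cells of a KO bud need not lack Meis2, nor Meis1 where its allele was conditional. In the Ovation set genotype, sex and, for KO S_280 and KO S_284, litter run together and cannot be told apart.

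Guidance receptors read short-range and secreted cues at the cell surface and turn them into repulsion, attraction or adhesion. Eph receptors are tyrosine kinases bound by membrane-held ephrins, which can signal back into their own cell. Class 3 semaphorins bind neuropilins that pair with plexins, Slits bind Robos, and netrins bind neogenin and the Unc5 receptors. In the limb bud these cues are known for sorting mesenchymal cells into domains and for steering motor axons, vessels and muscle precursors.

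Among the tested members 5 rose and 1 fell in KO buds, and 51 did not pass the test. These 6 are 10.5% of the 57, where 2.09% of all genes tested passed in either direction, 1.04% higher and 1.05% lower. Epha3, Nrp2, Sema3c, Robo1 and Neo1 rose and Sema5a fell, all at an adjusted p under 0.05 in limma across all genes. Receptors gave 4 of the increases among 27 tested, and ligands gave 1 increase and 1 decrease among 30. At an adjusted p under 0.1, which 3.94% of all genes passed, Slit2, Unc5d, Unc5c and Epha4 joined them. An unadjusted p under 0.05 was met by 18 members, 15 of them higher, or 31.6% against 14.7% of all genes. KO and WT libraries did not overlap for 8 members, the 6 that passed with Slit2 and Unc5d, or 14.0% against 3.49% of all genes. Unc5d is counted here, at an adjusted p under 0.1 and at an unadjusted p under 0.05 as a description only. All its WT values were under 1 CPM, so it could pass the filter on low values only through its KO libraries. The median log2 FC of the tested members was 0.06, beside 0.00038 over all genes.

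**Figure D1:**
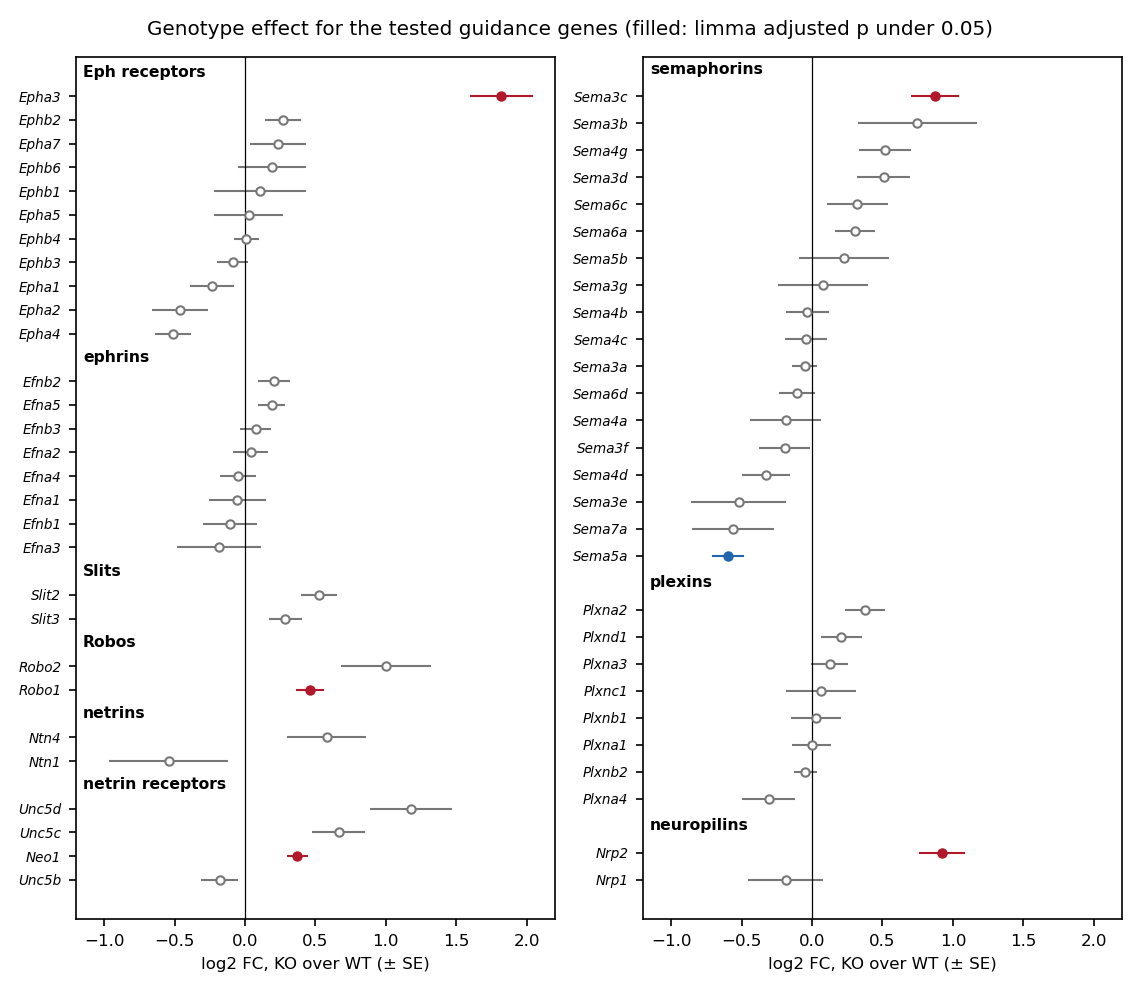
Fitted log2 FC of KO over WT (x axis, point with SE) for the 57 tested guidance genes, grouped by family and ordered by size. Filled red points rose and the filled blue point fell at a limma adjusted p under 0.05. Epha3 stands at 1.82, and the 8 ephrins all lie between -0.18 and 0.21.

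Several facts of the whole table bear on these values. Bud markers were present, with Pitx1 at 22.1 ± 3.54 CPM in KO and 21.0 ± 4.06 CPM in WT, and Tbx4 at 70.2 ± 11.2 CPM in KO and 69.3 ± 13.4 CPM in WT (SD, n = 6 and n = 5). Neither targeted gene passed the test, with Meis1 at 134 ± 19.3 CPM in KO and 125 ± 17.3 CPM in WT, and Meis2 at 228 ± 35.8 CPM in KO and 216 ± 25.1 CPM in WT. Values per gene do not show whether an exon was deleted. Summed markers of 13 limb mesenchyme genes ran from 1616 to 1983 CPM in KO and 1479 to 1800 CPM in WT, and those of 17 endothelial genes from 302 to 423 CPM in KO and 304 to 399 CPM in WT. The sum of 13 measured apical ridge genes did not overlap, at 132 to 185 CPM in KO and 223 to 261 CPM in WT, and 7 of the 13 passed as lower. For 6 measured muscle precursor genes of a list of 9 the sum was 72.5 to 131 CPM in KO and 55.3 to 85.5 CPM in WT, for 9 neuronal genes of a list of 17 it was 38.3 to 52.6 CPM in KO and 50.7 to 69.4 CPM in WT, and for 7 neural crest genes of a list of 10 it was 50.0 to 90.3 CPM in KO and 53.0 to 76.9 CPM in WT. Of the 7 neural crest genes 3 passed as higher (Fabp7, Gfra3 and Tfap2b) and 1 as lower (Ngfr), which their sum hides. All WT values of Fabp7 were under 1 CPM, and Gfra3 reached 1 CPM in WT 3 alone among WT libraries. Both could thus pass the filter on low values only through their KO libraries, and are counted as a description only. Tfap2b was at 32.6 ± 12.9 CPM in KO and 12.9 ± 2.86 CPM in WT, and Ngfr at 17.9 ± 4.66 CPM in KO and 29.1 ± 3.77 CPM in WT. The muscle precursor list gave 1 call, higher, and the neuronal list 1 call, lower. Tubb3, a defining neuronal gene, was at 0.229 to 0.720 CPM in KO and 1.02 to 1.71 CPM in WT. It did not pass (limma adjusted p = 0.0769), and it could pass the filter on low values only through its WT libraries. Of the 9 neuronal genes 8 had a log2 FC below 0 and 1 above, from -1.14 to 0.05. Elavl4 was at -0.10, Gap43 at -0.16 and Snap25 at 0.05. Surface ectoderm genes summed to 302 to 505 CPM in KO and 379 to 479 CPM in WT, and blood genes to 1360 to 13100 CPM in KO and 1794 to 11780 CPM in WT. In whole buds fewer cells of a type and less RNA per cell cannot be told apart.

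Epha3, a receptor for A-class ephrins (chr16:63543534-63864175 on GRCm38, minus strand), showed the largest change of any member. In KO libraries it ran from 28.1 through a median of 52.6 to 80.2 CPM, against 12.8, 10.9, 11.8, 17.1 and 19.6 CPM in WT S_252, S_254, 1, 3 and 4. Every KO library lay above every WT library, with KO 4 lowest and KO 3 highest. The fitted log2 FC was 1.82 with an SE of 0.22 (limma adjusted p = 0.00275), 2.05 among Ovation libraries and 1.64 among NEBNext libraries. The call was kept without any single library, with an adjusted p of at most 0.0157, but in the NEBNext set alone the adjusted p was 0.121.

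The place of Epha3 in its own family differed between the groups. Divided by exon length, it was the 2nd most abundant of 11 Eph receptors in KO at 8.38 ± 2.74 CPM per kb and the 7th in WT at 2.29 ± 0.59 CPM per kb. Ephb4, a receptor of veins and their precursors that binds ephrin-B2, led in both groups at 13.2 ± 1.24 CPM per kb in KO and 13.2 ± 1.37 CPM per kb in WT. Epha3 made up 11.7% to 24.8% of the summed Eph receptor level per kb in KO libraries and 4.31% to 7.61% in WT libraries. The summed level of the family itself overlapped between the groups, at 45.0 ± 4.40 CPM per kb in KO and 41.8 ± 2.76 CPM per kb in WT.

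Epha4, which binds ephrins of both classes and is known for keeping hindlimb motor axons on their dorsal path, pointed the other way. It had 36.2, 63.2, 51.8, 52.5, 40.5 and 53.1 CPM in KO S_258, S_280, S_284, 2, 3 and 4, and 68.6, 77.0, 67.5, 73.9 and 60.6 CPM in WT S_252, S_254, 1, 3 and 4. Only KO S_280 reached into the WT range. The log2 FC of -0.51 (SE 0.13) missed the threshold, with a limma adjusted p of 0.060. Leaving out each of the 11 libraries in turn gave adjusted p from 0.0325 (without KO S_280, the library nearest to WT) to 0.187, with 1 under the threshold. The ratio of Epha3 to Epha4 per kb was 0.532 to 1.99 in KO and 0.142 to 0.325 in WT, and Epha4 was the more abundant of the pair in each WT bud and in KO S_280, S_284 and 4.

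The remaining Eph receptors stayed within a log2 FC of 0.5 of WT. Epha2, an epithelial Eph receptor, had a log2 FC of -0.46 (limma adjusted p = 0.293). Ephb2, a receptor for B-class ephrins, had 30.4 to 46.1 CPM in KO and 25.6 to 36.1 CPM in WT (log2 FC 0.27, limma adjusted p = 0.338). Ephb3 had 3.47 ± 0.40 CPM per kb in KO and 3.70 ± 0.45 CPM per kb in WT. Epha7, known for its distal domain in limb mesenchyme, varied widely among KO libraries, with 18.7 to 44.7 CPM in KO and 20.4 to 29.1 CPM in WT.

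No ephrin passed the test, and none had an unadjusted p under 0.05. The most abundant per kb were Efnb2, the ligand of Ephb4 on arteries, at 15.0 ± 1.46 CPM per kb in KO and 13.1 ± 2.37 CPM per kb in WT, Efna2 at 10.4 ± 1.60 in KO and 10.1 ± 1.16 in WT, and Efnb3 at 9.78 ± 1.21 in KO and 9.30 ± 1.21 in WT. Efna5, a high-affinity ligand of Epha3, had 33.6 to 43.9 CPM in KO and 29.3 to 36.1 CPM in WT (log2 FC 0.19, limma adjusted p = 0.397). Efna3, a low-level ephrin, had 1.58 to 3.44 CPM in KO and 1.43 to 4.99 CPM in WT. Epha3 was thus the one call among the Eph receptors and ephrins.

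**Figure D2:**
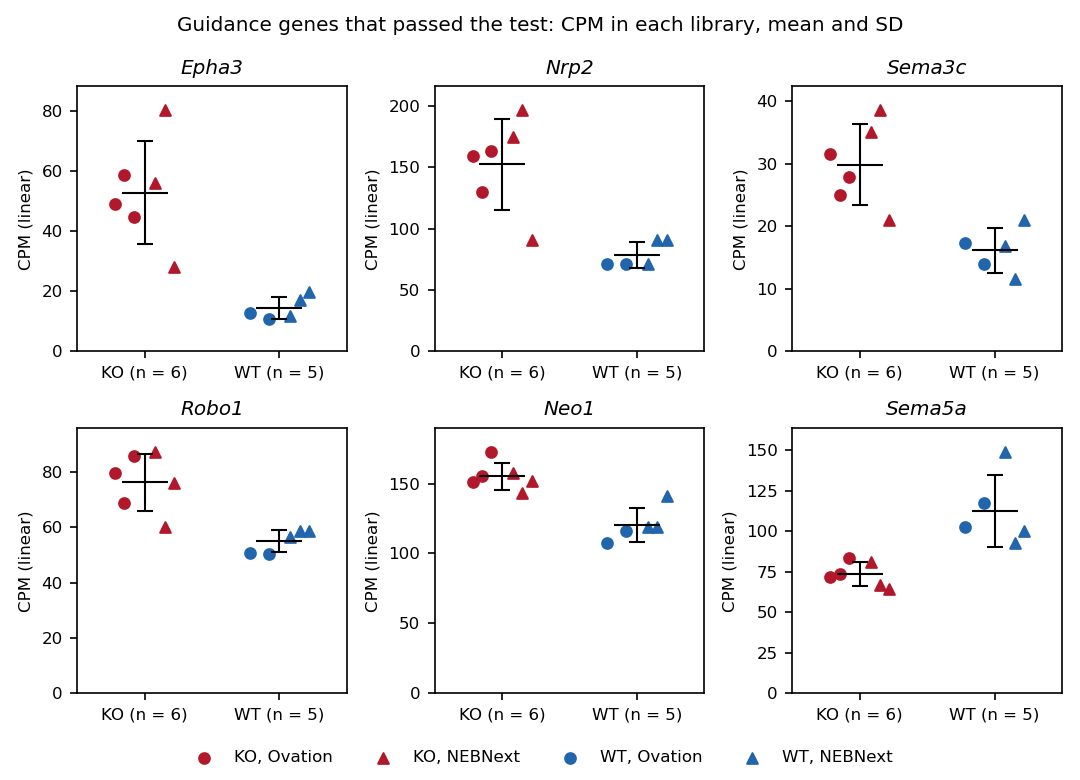
CPM on a linear scale in each library for the 6 guidance genes that passed the test, KO left and WT right, with circles for the Ovation set, triangles for the NEBNext set, and bars for the mean and SD (n = 6 KO and n = 5 WT). No KO library overlaps a WT library in any panel, Epha3 spans 28.1 to 80.2 CPM in KO against 10.9 to 19.6 CPM in WT, and Sema5a is the one gene that is lower in KO.

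Nrp2, the neuropilin that binds Sema3c and Sema3f (chr1:62703285-62818695, plus strand), rose 1.90-fold. KO libraries ran from 90.7 through a median of 161 to 196 CPM, against 70.9, 71.4, 71.0, 90.3 and 90.4 CPM in WT S_252, S_254, 1, 3 and 4. The lowest KO library, KO 4, lay only just above WT 3 and WT 4, and KO 3 was again the highest. Its log2 FC was 0.92 with an SE of 0.17 (limma adjusted p = 0.0122), 1.07 among Ovation libraries and 0.80 among NEBNext libraries. It passed without any single library, with an adjusted p of at most 0.0452, but the adjusted p was 0.0619 when only litter 1 stood for the Ovation set, and 0.249 with NEBNext libraries alone.

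Nrp1, the co-receptor for Sema3a and VEGF, did not pass (log2 FC -0.19, limma adjusted p = 0.833). It had 20.0, 31.1, 45.6, 22.4, 13.7 and 28.2 CPM in KO S_258, S_280, S_284, 2, 3 and 4, and 25.1, 19.1, 37.7, 39.7 and 26.4 CPM in WT S_252, S_254, 1, 3 and 4. Its highest KO library was KO S_284 and its highest WT libraries were WT 1 and WT 3. The same 3 libraries had summed somite marker levels of 71.3, 44.4 and 81.6 CPM over 6 measured genes, against 11.3 to 38.7 CPM in the other KO libraries and 18.8 to 21.5 CPM in the other WT libraries, and the part of these cells in the Nrp1 values was not tested. Per kb, Nrp2 was at 14.7 ± 3.58 in KO and 7.59 ± 1.02 in WT, and Nrp1 at 7.47 ± 3.08 in KO and 8.23 ± 2.44 in WT. The ratio of Nrp2 to Nrp1 ran from 1.11 to 4.96 in KO and from 0.652 to 1.296 in WT.

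Sema3c, a secreted class 3 semaphorin that signals through both neuropilins and is known for guiding neural crest cells to the outflow tract of the heart (chr5:17574281-17730268, plus strand), was the one ligand that rose. It had 21.0 to 38.5 CPM with a median of 29.6 CPM in KO, and 17.3, 14.0, 16.8, 11.6 and 20.9 CPM in WT S_252, S_254, 1, 3 and 4. KO 4 lay next to WT 4 and the groups did not overlap. The log2 FC was 0.87 with an SE of 0.17 (limma adjusted p = 0.0203), 0.83 among Ovation libraries and 0.91 among NEBNext libraries. It lost the call without KO 2 (adjusted p = 0.0709), without WT S_254 and without a mean-variance trend (adjusted p = 0.0517). The adjusted p was also above the threshold at 0.0658 when only litter 1 stood for the Ovation set, at 0.0606 with Ovation libraries alone and at 0.221 with NEBNext libraries alone. For Epha3, Nrp2 and Sema3c alike KO 3 was the highest and KO 4 the lowest of the KO libraries.

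Sema3a, the chemorepellent that binds Nrp1, was the most abundant guidance ligand per kb and did not pass the test. It had 19.6 ± 1.58 CPM per kb in KO and 20.4 ± 2.57 CPM per kb in WT (log2 FC -0.05, limma adjusted p = 0.858). The ratio of Sema3c to Sema3a was 0.200 to 0.324 in KO and 0.122 to 0.177 in WT. Sema4c, a transmembrane semaphorin and the third in WT per kb, had 22.1 to 31.2 CPM in KO and 17.7 to 31.4 CPM in WT (log2 FC -0.04, limma adjusted p = 0.950). Sema3f, a ligand of Nrp2, had 14.5 to 25.5 CPM in KO and 15.1 to 28.5 CPM in WT, with a log2 FC of 0.34 among Ovation libraries and -0.62 among NEBNext libraries.

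Sema5a, a membrane semaphorin with thrombospondin repeats (chr15:32244810-32696341, plus strand), was the only member that fell. KO libraries ran from 64.6 through a median of 73.0 to 83.5 CPM, against 102, 118, 149, 93.0 and 99.98 CPM in WT S_252, S_254, 1, 3 and 4. The KO libraries lay close together and the spread was larger in WT, with WT 1 highest. For Sema5a the log2 FC was -0.60 with an SE of 0.12 (limma adjusted p = 0.0181), -0.52 among Ovation libraries and -0.65 among NEBNext libraries. Without WT S_254 the adjusted p was 0.0637, and it was 0.0581 without a mean-variance trend and 0.0580 when only litter 1 stood for the Ovation set. It was 0.0672 with Ovation libraries alone and 0.183 with NEBNext libraries alone. Per kb Sema5a was the 2nd semaphorin after Sema3a in both groups, at 6.82 ± 0.69 in KO and 10.4 ± 2.06 in WT.

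Among the other semaphorins 3 had an unadjusted limma p under 0.05 and no adjusted p under 0.1, all higher in KO. The log2 FC was 0.52 for Sema4g (adjusted p = 0.191), 0.51 for Sema3d (adjusted p = 0.207) and 0.31 for Sema6a (adjusted p = 0.331). Sema3b, a class 3 semaphorin at a low level here, had a log2 FC of 0.75 (SE 0.42, limma adjusted p = 0.449). In the Ovation set it read 4.25, 1.09 and 2.71 CPM in KO S_258, S_280 and S_284, against 0.315 and 0.337 CPM in WT S_252 and S_254. In the NEBNext set it read 1.06, 1.64 and 0.697 CPM in KO 2, 3 and 4, against 0.676, 2.55 and 0.872 CPM in WT 1, 3 and 4. Sema7a, a GPI-anchored semaphorin, averaged 0.852 ± 0.55 CPM in KO and 1.39 ± 0.31 CPM in WT, with an adjusted p of 0.400.

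Plexins, the signalling receptors for semaphorins, gave no call among 8, with a median log2 FC of 0.05. Plxnb2 was the most abundant, at 15.0 ± 0.68 CPM per kb in KO and 15.6 ± 1.94 CPM per kb in WT, followed in WT by Plxna1 at 10.6 ± 1.82 in KO and 10.7 ± 2.05 in WT, and by Plxnd1, known for vessel patterning, at 8.24 ± 1.29 in KO and 7.25 ± 1.59 in WT. Plxna2, a partner of neuropilins, had 70.2 to 121 CPM in KO and 57.4 to 88.9 CPM in WT (log2 FC 0.38, limma adjusted p = 0.229). It was also the one plexin with the same direction in both library sets.

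**Figure D3:**
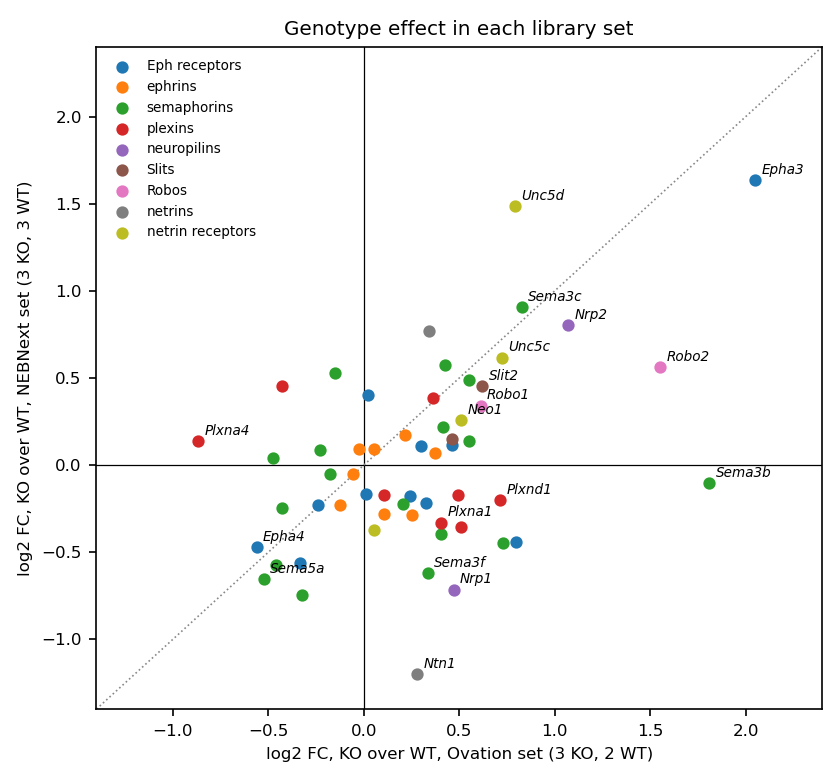
Fitted log2 FC of KO over WT in the Ovation set (x axis, 3 KO and 2 WT) and in the NEBNext set (y axis, 3 KO and 3 WT) for the 57 tested guidance genes, coloured by family, with a dotted line at equal values. Epha3, Nrp2, Sema3c, Robo1, Neo1 and Sema5a keep their direction in both sets, while 7 of 8 plexins (red) fall in the quadrants of opposite direction.

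The library sets were compared because they differ in kit and in what is known of sex and litter. Among Ovation libraries alone 5 members passed, where 1.15% of all genes did, namely Epha3, Nrp2, Robo2, Unc5c and Plxnd1, all higher in KO. In the NEBNext set alone 0 members passed in limma, where 0.0231% of all genes did, and 18 members had an unadjusted p under 0.05, where 12.0% of all genes did. The direction was the same in both sets for 32 of 57 members, or 56.1%, beside 52.0% of all genes. Of the other 25 members, 19 were higher in KO among Ovation libraries and lower among NEBNext libraries.

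Plexins were 7 of these 25. Plxnd1 had 55.7, 62.7 and 71.5 CPM in KO S_258, S_280 and S_284, against 37.1 and 39.3 CPM in WT S_252 and S_254. In the NEBNext set it had 51.3, 46.7 and 53.6 CPM in KO 2, 3 and 4, against 57.2, 60.5 and 56.4 CPM in WT 1, 3 and 4. The log2 FC was 0.72 among Ovation libraries and -0.20 among NEBNext libraries, and the groups did not overlap in either set. The difference between sets had an adjusted p of 0.0757 in limma's interaction test, which no gene passed at 0.05. Plxna1, Plxna3, Plxnb1 and Plxna4 also had an unadjusted interaction p under 0.05, with the opposite order for Plxna4, so 5 of 8 plexins met it against 13.0% of all genes and 11 of all 57 members. Members of 1 family measured in the same libraries are not independent of each other. The endothelial markers had a median of 0.24 on the log2 scale among Ovation libraries and -0.27 among NEBNext libraries. Somite markers differed more, at 1.05 and -1.01, and limb mesenchyme markers had 0.11 and -0.19. Intermediate and coelomic mesoderm markers had 1.2 among Ovation and 0.09 among NEBNext libraries, and muscle precursor markers 0.57 and -0.03. Neural crest markers had 0.40 and 0.02, and blood markers -0.07 and 0.06. The medians of surface ectoderm, apical ridge and neuronal markers were below 0 in both sets. The part of any of these cell types in the plexin values was not tested.

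Robo1, the receptor for Slits (chr16:72308306-73046095, plus strand), rose 1.38-fold. It had 60.3 to 87.2 CPM with a median of 77.8 CPM in KO, and 50.9, 50.4, 56.6, 58.9 and 58.6 CPM in WT S_252, S_254, 1, 3 and 4. KO 3 was the lowest KO library and lay just above the WT range. For Robo1 the log2 FC was 0.46 with an SE of 0.10 (limma adjusted p = 0.0287), 0.61 among Ovation libraries and 0.34 among NEBNext libraries. The call was lost without KO S_258, KO S_284, KO 2, WT S_252, WT S_254 or WT 1 (adjusted p up to 0.102) and without a mean-variance trend (adjusted p = 0.0777). It was also lost when only litter 1 stood for the Ovation set (adjusted p = 0.108), with Ovation libraries alone (adjusted p = 0.0517) and with NEBNext libraries alone (adjusted p = 0.343).

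Robo2, its paralogue and the next tested gene on the chromosome (chr16:73891839-74411825, minus strand), had the larger fold without passing. It had 37.0, 41.8, 50.8, 43.5, 15.9 and 53.1 CPM in KO S_258, S_280, S_284, 2, 3 and 4, and 15.5, 13.1, 38.7, 13.6 and 21.3 CPM in WT S_252, S_254, 1, 3 and 4. KO 3 read like most WT libraries and WT 1 like most KO libraries. For Robo2 the log2 FC was 1.00 with an SE of 0.32 (limma adjusted p = 0.143). Leaving out 1 library gave adjusted p from 0.0168 (without KO 3, the KO library in the WT range) to 0.342, with 1 of 11 fits under the threshold. KO 3 also had the lowest KO sum over 8 intermediate and coelomic mesoderm genes, 19.4 CPM against 33.6 to 47.1 CPM in the other KO libraries. The sum was 16.3, 14.8, 21.0, 33.2 and 33.2 CPM in WT S_252, S_254, 1, 3 and 4. WT 1, the highest WT library for Robo2, was thus not the highest for this sum. Of the 8 genes 2 passed as higher, and their median log2 FC was 0.97. The part of such cells in the Robo2 values was not tested.

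Neither Slit ligand passed, and both had fitted values above 0, as their receptors did. Slit2, a secreted repellent (chr5:47983138-48307733, plus strand), had 38.4, 47.8, 49.1, 53.7, 37.5 and 41.7 CPM in KO S_258, S_280, S_284, 2, 3 and 4, and 27.5, 30.6, 37.1, 35.3 and 24.5 CPM in WT S_252, S_254, 1, 3 and 4. The groups did not overlap, though KO 3 and WT 1 nearly met, and the log2 FC of 0.53 (SE 0.13) narrowly missed the threshold with a limma adjusted p of 0.0507. It lay at the threshold, with an adjusted p from 0.0311 to 0.361 over 13 other settings, 5 of which called it, and from 0.0412 to 0.1497 when 1 library was left out, where 2 of 11 fits called it. Slit3 had 12.7 to 16.6 CPM in KO and 9.999 to 14.0 CPM in WT (log2 FC 0.29, adjusted p = 0.268). Summed per kb, Slits were at 6.51 to 8.07 in KO and 4.66 to 6.38 in WT, without overlap, and Robos at 9.75 to 17.0 in KO and 8.13 to 11.8 in WT.

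**Figure D4:**
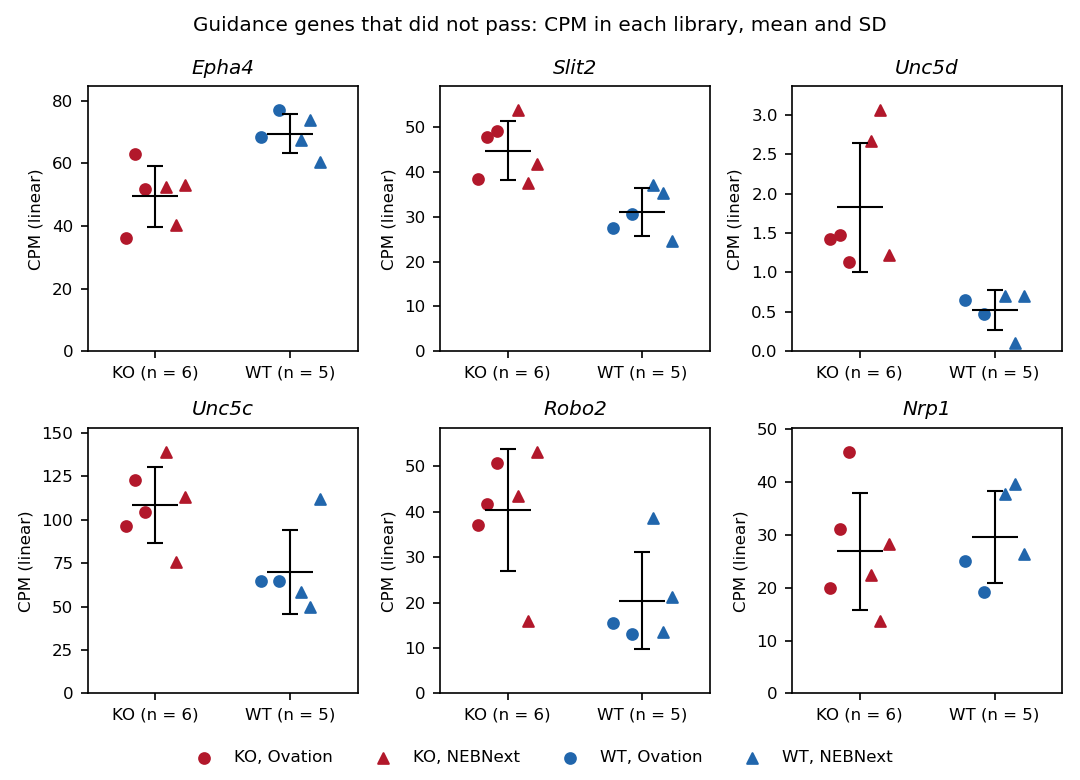
CPM on a linear scale in each library for Epha4, Slit2, Unc5d, Unc5c, Robo2 and Nrp1, which did not pass the test, KO left and WT right, with circles for the Ovation set, triangles for the NEBNext set and bars for the mean and SD (n = 6 KO and n = 5 WT). The groups of Slit2 and Unc5d do not overlap, while single libraries cross over for Epha4 (KO S_280), Unc5c (WT 4) and Robo2 (KO 3 and WT 1).

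Neo1, neogenin, a receptor for netrins and for the repulsive guidance molecules (chr9:58874687-59036441, minus strand), was the most abundant receptor of all families per kb, at 21.0 ± 1.32 in KO and 16.3 ± 1.67 in WT. It had 143 to 172 CPM with a median of 153 CPM in KO, and 107, 116, 119, 119 and 141 CPM in WT S_252, S_254, 1, 3 and 4. WT 4 came within a few CPM of the lowest KO library, KO 3. The rise was 1.29-fold with a log2 FC of 0.37 and an SE of 0.08 (limma adjusted p = 0.0226), 0.51 among Ovation libraries and 0.26 among NEBNext libraries. The call was lost without KO 2, WT S_252, WT S_254 or WT 1 (adjusted p up to 0.0859) and without a mean-variance trend (adjusted p = 0.0733). Nor did Neo1 pass when only litter 1 stood for the Ovation set (adjusted p = 0.119), with Ovation libraries alone (adjusted p = 0.0505) or with NEBNext libraries alone (adjusted p = 0.332).

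Unc5c, a netrin receptor of the repulsive kind, had 96.5, 123, 105, 139, 75.8 and 113 CPM in KO S_258, S_280, S_284, 2, 3 and 4, and 65.0, 64.5, 58.6, 50.0 and 112 CPM in WT S_252, S_254, 1, 3 and 4. WT 4 alone stood in the KO range. Its log2 FC was 0.67 with an SE of 0.19 (limma adjusted p = 0.0962). Leaving out 1 library gave adjusted p from 0.0102 (without WT 4) to 0.238, with 2 of 11 fits under the threshold. An exon of Unc5c overlaps an antisense gene, Gm15688, and reads of the pair cannot be told apart unless strand was used in counting, which is not given in the sources used here.

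Unc5d, a low-abundance relative that also binds the adhesion protein Flrt2, had 1.13 to 3.06 CPM with a median of 1.45 CPM in KO, and 0.645, 0.476, 0.706, 0.108 and 0.702 CPM in WT S_252, S_254, 1, 3 and 4. The groups did not overlap, and KO 2 and KO 3 stood above the other KO libraries. On the log2(CPM + 0.5) scale, which understates changes of such low genes, the log2 FC was 1.18 with an SE of 0.29 (limma adjusted p = 0.0555). Unc5b, a vascular netrin receptor, had 39.9 to 64.4 CPM in KO and 49.0 to 72.3 CPM in WT, with an adjusted p of 0.592.

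Netrins themselves were scarce, at 1.16 to 2.38 CPM per kb summed in KO and 1.11 to 3.62 in WT. Ntn1, a secreted netrin made in the somites and floor plate, had 4.02, 9.23, 9.99, 2.51, 2.91 and 10.2 CPM in KO S_258, S_280, S_284, 2, 3 and 4, and 5.46, 6.29, 12.7, 17.7 and 5.09 CPM in WT S_252, S_254, 1, 3 and 4. WT 3 and WT 1 were highest, and these were also the WT libraries with the most somite marker RNA given above. Its log2 FC of -0.54 had an SE of 0.42 and a limma adjusted p of 0.625. Ntn4, a laminin-related netrin of basement membranes, had 1.96 to 5.15 CPM in KO and 1.00 to 2.58 CPM in WT, with an adjusted p of 0.356.

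**Figure D5:**
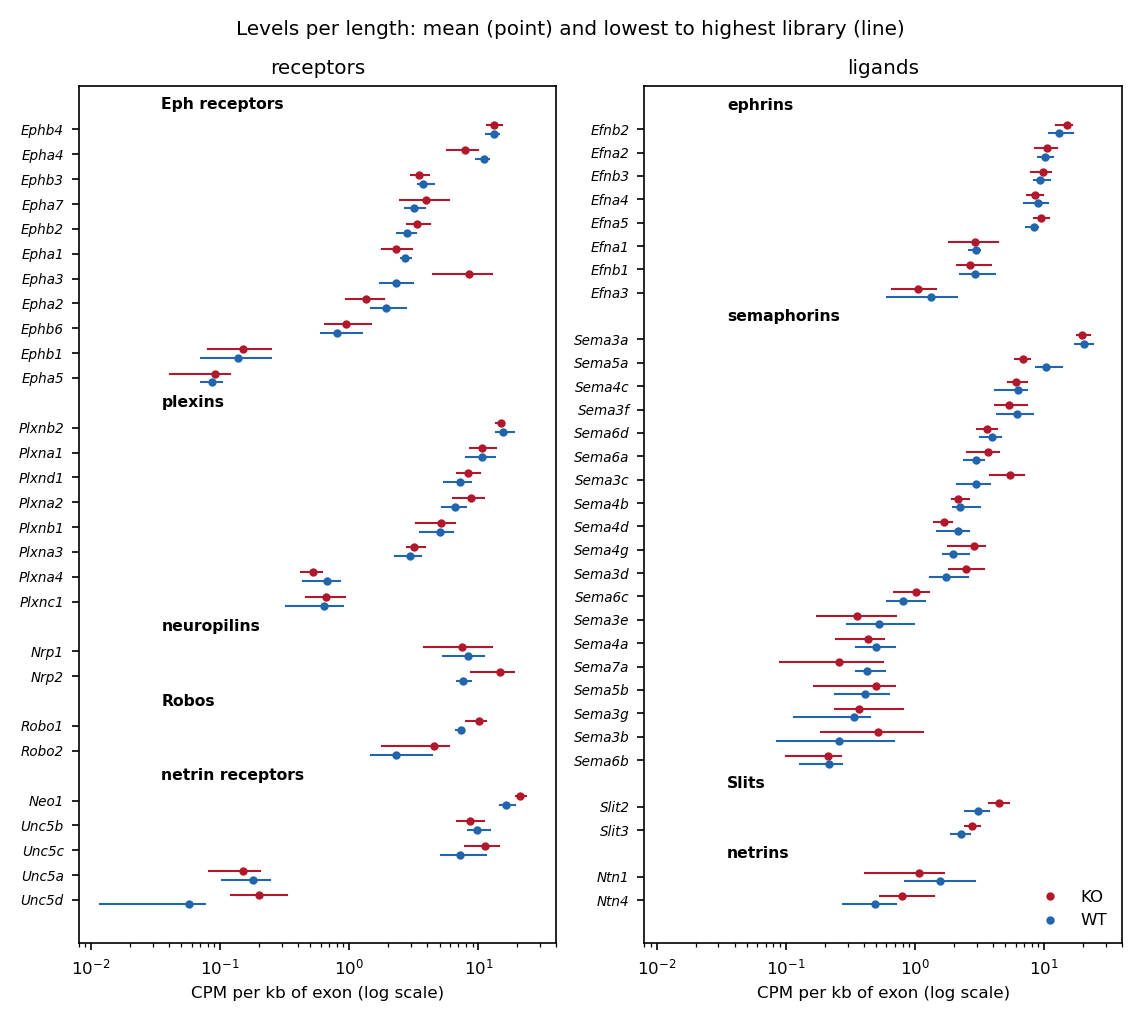
Level per length of every guidance gene (x axis, CPM per kb of exon, log scale), receptors left and ligands right, with points for the mean and lines from the lowest to the highest library, KO red above WT blue. Neo1 at 21.0 in KO and Sema3a at 20.4 in WT mark the top of the range, Epha3 holds the 2nd place of its family in KO and the 7th in WT, and Unc5d and Epha5 lie near the bottom.

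Genes known to act with these families were read from lists written by role. Of 76 tested effectors and cofactors 1 passed, or 1.32% beside 2.09% of all genes. None passed among 21 of the Eph pathway, 20 of the semaphorin and plexin pathway and 18 of the netrin pathway, with 3, 0 and 4 at an unadjusted limma p under 0.05. Among 20 of the Slit and Robo list Flrt2, a leucine-rich repeat adhesion protein that binds Unc5 receptors, rose 1.72-fold. It had 42.7, 46.5, 55.4, 64.7, 48.7 and 34.8 CPM in KO S_258, S_280, S_284, 2, 3 and 4, and 28.4, 24.7, 26.5, 29.9 and 29.2 CPM in WT S_252, S_254, 1, 3 and 4. All KO libraries lay above WT (log2 FC 0.78, SE 0.13, limma adjusted p = 0.00948).

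The genomic surroundings of the 6 genes that passed were read in the same fit. Of the 3 tested genes on each side of each, none passed. The smallest limma adjusted p beside Epha3 was that of Nsun3, at 0.188 with log2 FC 0.43. Next to Nrp2 it was that of Pard3b, at 0.135 with log2 FC 0.57, and next to Neo1 that of Hcn4, at 0.310 with log2 FC 0.92. No exon of the 6 genes overlaps an exon of another gene annotated in GENCODE M21.

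Promoters were searched for the Meis hexamer TGACAG on both strands, in the 250 bases before each RefSeq start (GRCm38.p6). It was found in 11 of 67 member promoters, or 16.4%, beside 15.9% of 32851 promoters of all genes, and in 0 of the 6 genes that passed. The Hox-Pbx octamer TGATNNAT was in 1 of 67, or 1.49%, beside 7.68% of all, with both searches matching letters only. The study's Meis peaks lay preferentially at distal enhancers, which these windows do not cover. Those peaks came from the study's own ChIP-seq of forelimb and hindlimb buds. They were not looked up at these genes, so Meis binding there was not tested here. Member promoters had a median GC content of 64.4% against 52.4% for all promoters, and those of the genes that passed ranged from 56.0% in Robo1 to 83.2% in Neo1. The windows of Epha3, Robo1 and Neo1 are shown because they belong to genes that rose and hold no hexamer, and that of Efnb2 because it holds a pair of hexamers, in capitals, in a gene that did not pass. They lie at chr16:63864176-63864425 (minus strand), chr16:72662899-72663148 (plus strand), chr9:59036442-59036691 (minus strand) and chr8:8661243-8661492 (minus strand), are written 5′ to 3′ along the gene, and overlap no annotated exon, with the Robo1 window inside the annotated span of the gene.
Epha3: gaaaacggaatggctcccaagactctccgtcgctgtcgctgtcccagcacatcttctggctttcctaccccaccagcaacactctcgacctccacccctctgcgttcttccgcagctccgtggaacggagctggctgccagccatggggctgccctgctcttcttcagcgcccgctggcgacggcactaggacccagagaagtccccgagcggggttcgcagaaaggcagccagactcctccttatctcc
Robo1: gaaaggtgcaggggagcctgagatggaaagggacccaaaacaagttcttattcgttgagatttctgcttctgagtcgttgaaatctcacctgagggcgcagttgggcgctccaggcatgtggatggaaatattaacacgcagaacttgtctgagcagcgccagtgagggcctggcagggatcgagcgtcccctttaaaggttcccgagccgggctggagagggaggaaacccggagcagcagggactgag
Neo1: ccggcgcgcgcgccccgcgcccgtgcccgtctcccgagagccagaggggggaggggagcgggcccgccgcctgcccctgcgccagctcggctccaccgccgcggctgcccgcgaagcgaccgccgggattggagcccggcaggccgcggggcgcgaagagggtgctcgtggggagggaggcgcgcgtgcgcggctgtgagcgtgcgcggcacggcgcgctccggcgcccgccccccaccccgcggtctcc
Efnb2: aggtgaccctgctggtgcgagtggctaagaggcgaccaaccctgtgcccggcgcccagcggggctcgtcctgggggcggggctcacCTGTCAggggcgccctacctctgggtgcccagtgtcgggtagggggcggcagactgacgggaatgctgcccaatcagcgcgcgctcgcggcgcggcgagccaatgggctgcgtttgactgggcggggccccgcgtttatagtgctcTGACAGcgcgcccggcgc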

How the data were processed

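RNA of E10 HL buds was read in 11 libraries, 6 KO and 5 WT, and the members and lists were chosen with earlier results of these data known. Per the labels and the study's methods, adaptors were removed with cutadapt 1.3, CASAVA 1.8.2 called the bases of Ovation libraries, and RSEM 1.2.3 estimated expected counts against GRCm38. The tools named for NEBNext libraries (bcl2fastq, cutadapt, RSEM, limma) carry no versions. The authors then applied TMM scaling and ComBat and deposited linear CPM, in 13720 genes with no value at 0. CPM summed to 754534 to 805762 per library, and the depth is unknown, so no counting interval is given. ComBat had already drawn the sets together, which can make the residual spread too small.

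Log2(CPM + 0.5) was modelled on genotype plus library set by limma 3.58.1 under R 4.3.3 with its trend option, leaving 8 residual degrees of freedom. Genes needed 1 CPM in 4 libraries, which kept 12996. Tests were two-sided with Benjamini-Hochberg adjustment over all genes at 0.05, and FC is KO over WT including the pseudocount. Each set was also fitted alone, and an interaction term tested their difference. Positions and exon lengths came from GENCODE M21, promoters from RefSeq. Named were the members that passed, the 3 most abundant and the 2 with the largest changes of each family, known partners of members that passed, members under the filter, and those with an unadjusted p under 0.05. Epha5, Epha7, Sema7a, Plxna3, Plxnb1, Sema4b, Sema3g and Efnb1 are named outside that rule, chosen after their values were seen. Tables and plots used Python 3.11.15, pandas 2.3.3, numpy 2.4.6 and matplotlib 3.10.9. Alternatives were other pseudocounts, filters, scalings and variance models, no set term, a replicate block, single sets, litter 1 alone, and leaving out each library.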

Additional observations from a re-analysis of the deposited data

Results flagged for a closer look

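In groups of 5 or 6 libraries, 1 library stood far from the others in 8 of 114 groups examined. Chance would give about 1 in 20 for independent, normally distributed values. These are linear CPM of genes that share the same libraries, so that rate is only a guide. WT 3 was high for Ephb3, at 25.7 CPM against 19.6 to 20.2 CPM in the other WT libraries, and for Sema3b, at 2.55 CPM against 0.315 to 0.872 CPM. WT 4 was high for Sema4b, at 12.8 CPM against 7.92 to 8.24 CPM, and for Unc5c, at 112 CPM against 50.0 to 65.0 CPM. KO S_284 was high for Efnb1, at 12.7 CPM against 6.84 to 8.97 CPM in the other KO libraries, and for Sema3g, at 3.68 CPM against 1.09 to 1.56 CPM. KO 3 was high for Sema3a, at 141 CPM against 112 to 122 CPM, and for Ntn4, at 5.15 CPM against 1.96 to 2.78 CPM. None of these genes passed the test between KO and WT with all libraries.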

How the results depend on the processing

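The number of guidance genes that passed was 6, and stayed between 6 and 9 with other pseudocounts, filters and scalings, without the set term and with robust moderation. It was 2 without a mean-variance trend (Epha3 and Nrp2), 2 when only litter 1 stood for the Ovation set (Epha3 and Epha4), 5 with Ovation libraries alone, 0 with NEBNext libraries alone and 10 at an adjusted p under 0.1. Leaving out 1 library gave 2 (without WT S_254) to 9 (without KO 3). No member among the 18 with an unadjusted p under 0.05 changed direction in any of these. With replicate numbers of the NEBNext set as a block 3 members passed (Epha3, Sema5a and Robo2) and 64 genes in all against 272, in a fit with 5 residual degrees of freedom. In that fit the limma adjusted p was 0.0511 for Nrp2, 0.122 for Sema3c, 0.112 for Neo1 and 0.138 for Robo1. Whether these numbers pair the embryos could not be settled with 3 KO and 3 WT libraries. The deviations of same-numbered libraries correlated at 0.20 for number 3 and -0.04 for number 4. Those of differently numbered libraries correlated at -0.16 (KO 3 with WT 4) to 0.21 (KO 2 with WT 4). Of the other 39 tested members, 14 changed sign with Ovation libraries alone and 11 with NEBNext libraries alone. Over all genes, leaving out 1 library gave 106 to 337 calls. The depth behind these CPM is unknown, so the precision of Sema6b, Unc5a, Unc5d and other genes near 1 CPM could not be set.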
